A study of Mus musculus with 4 samples.

Results

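The genes examined were 4 galectins, Lgals1, Lgals3, Lgals8 and Lgals9, taken by gene symbol from the 31053 genes listed in the count tables. Each symbol matched 1 gene. In GENCODE M21 (GRCm38) all 4 are protein-coding genes. Lgals1 (ENSMUSG00000068220) lies on chromosome 15 from 78926725 to 78930465 on the plus strand, and Lgals3 (ENSMUSG00000050335) on chromosome 14 from 47367751 to 47386160 on the plus strand. Lgals8 (ENSMUSG00000057554) lies on chromosome 13 from 12439415 to 12464944 on the minus strand, and Lgals9 (ENSMUSG00000001123) on chromosome 11 from 78962974 to 78984946 on the minus strand.

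Galectins are small lectins that bind beta-galactose-containing glycans on glycoproteins and glycolipids. They are made in the cytosol without a signal peptide, leave the cell by an unconventional route, and crosslink receptors on the cell surface or bind glycans exposed inside the cell on damaged endosomes and lysosomes. In injured tissue they are known as products of activated macrophages that take part in phagocytosis, in the restraint of inflammation and in fibrosis.

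Transcripts were counted as unique molecular identifiers (UMIs) in single cells of the heart from CSF1R-EGFP reporter mice aged 12 to 16 weeks, in which the Csf1r promoter drives EGFP. Cells positive for EGFP and negative for Ly6G were sorted, so that EGFP marked monocytes, macrophages and other cells with Csf1r promoter activity and most neutrophils were gated out. The baseline group was 1 library from 3 pooled hearts without surgery. The infarct group was 3 libraries, each from 1 heart collected 7 days after ligation of the left coronary artery, with the remote zone cut away. After filtering, 10238 baseline cells and 10117 to 10782 cells per infarct library remained, 41533 in all. The median depth was 6398.5 UMIs per baseline cell and 8469.5 to 8556.5 per infarct cell, and mitochondrial UMIs made up 4.75% of the baseline and 3.07% to 3.73% of the infarct UMIs. Any pair of libraries shared 26 to 34 cell barcodes.

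Galectin transcripts were first compared between infarct and baseline over all cells of each library, as CPM, the summed UMIs of a gene scaled to 1000000 UMIs of all but the mitochondrial genes. The baseline is a single library, so no test was possible, and its 95% interval covers counting error only. Lgals3, which encodes the chimeric galectin that is abundant in phagocytes, was at 940 CPM in baseline (interval 933 to 947) and at 1791, 1844 and 1833 CPM in infarct replicates 1, 2 and 3. All 3 infarct libraries lay above baseline, and their mean of 1823 ± 28.0 CPM (SD, n = 3) was 1.94 times the baseline level. Lgals1, which encodes the dimeric prototype galectin, was at 641 CPM in baseline (635 to 647) and at 907, 941 and 829 CPM in the infarct libraries. Lgals9, a galectin of the tandem-repeat type known to be induced by interferon, was at 71.9 CPM in baseline (69.9 to 73.9) and at 100.5, 95.9 and 91.0 CPM in the infarct libraries. For both genes every infarct library was above baseline, with log2 ratios of the infarct mean to baseline of 0.48 for Lgals1 and 0.41 for Lgals9.

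Lgals8 encodes the other tandem-repeat galectin, which is known to detect damaged endomembranes. It was at 49.7 CPM in baseline (48.0 to 51.4) and at 47.1, 45.9 and 50.5 CPM in the infarct libraries, which fell on both sides of the baseline value. Thus 3 of the 4 galectins were above baseline in 3 of 3 infarct libraries, as were 29.1% of the 8249 genes with at least 10 CPM in either group, while 58.1% of these genes were below baseline in all 3. No galectin differed by 2-fold or more, which 9.56% of genes did with all infarct libraries on the same side. The median log2 ratio over all these genes was -0.21, and relative to this median the ratios were 0.69 for Lgals1, 1.17 for Lgals3, 0.16 for Lgals8 and 0.63 for Lgals9. With trimmed-mean (TMM) library factors the log2 ratios became 0.76, 1.24, 0.23 and 0.70, so that Lgals8 lay on the other side of baseline and Lgals3 passed 2-fold.

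The share of cells with a galectin UMI was compared after every cell had been thinned to 2000 UMIs, which left out 1247 baseline cells and 672 to 1044 cells per infarct library. A Lgals3 UMI was then found in 41.9% of baseline cells (exact interval 40.8 to 42.9) and in 73.9% ± 0.67 of infarct cells (n = 3), and without thinning in 55.4% and 87.8% ± 1.40. Lgals1 was found in 47.8% of baseline cells (46.8 to 48.8) and 64.5% ± 1.99 of infarct cells, and without thinning in 64.9% and 85.2% ± 2.78. Droplets also hold free RNA, so for the baseline library the shares in its B-cell-like and endothelial-like cells, with median depths of 3298 and 3016 UMIs, serve as a reference. These were 8.82% and 10.3% for Lgals3 and 7.35% and 8.62% for Lgals1, well under the shares in all baseline cells. The infarct libraries held only 18, 8 and 26 B-cell-like cells. Without thinning, 50%, 87.5% and 61.5% of these had a Lgals3 UMI, at 1068, 1561 and 2858 CPM, against 14.5% and 371 CPM in baseline. These infarct values were thus above those of the baseline reference, and the part of free RNA in the infarct shares was not tested. For Lgals8, the shares of 9.30% in baseline (8.71 to 9.92) and 8.92% ± 0.21 in infarct were under the 10.3% found in both reference types. These types held Lgals8 at 41.6 and 44.7 CPM, near the 49.7 CPM of the whole baseline library. For this gene the shares therefore cannot separate free RNA from transcripts of the cells. For Lgals9, 11.3% of baseline cells (10.7 to 12.0) and 15.7% ± 0.77 of infarct cells had a UMI, against 11.8% of B-cell-like and 17.2% of endothelial-like cells. The reference types held Lgals9 at 90.8 and 115 CPM, above the 71.9 CPM of the whole baseline library, so they give no measure of free RNA for this gene. Lgals8 and Lgals9 are described by their summed levels, which hold free RNA as well. Its part in them was not tested.

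A whole-library level mixes the number of cells of each type with the amount of RNA in each cell, and the makeup of the libraries differed. To look within cell types, each cell was assigned by the number of markers of a type with at least 1 UMI, usually at least 4. Resident-like macrophages (Lyve1, Timd4, Folr2, Cd163 and related markers) made up 27.4% of baseline cells and 0.900% to 1.28% of infarct cells. Reparative-like macrophages (Gpnmb, Spp1, Gdf15, Fabp5, Trem2 and related markers) made up 1.82% of baseline and 29.2% to 38.3% of infarct cells. The other macrophage groups were interferon-response-like cells (Ifit1, Rsad2, Cxcl10), proliferative-like cells (Mki67, Top2a, Birc5), cells with Saa3 and Arg1, C1q-positive cells with high MHC class II transcripts, and the remaining C1q-positive cells. Monocytes were classical-like (Ly6c2, Ccr2, Chil3), split by whether C1q transcripts were present, or non-classical-like (Ace, Treml4, Cd300e), and dendritic-like and granulocyte-like cells completed the 12 types. No galectin was used in a gate. Many cells lay at the edge of a gate, such as 3503 of 10941 reparative-like cells that had exactly 4 markers.

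**Figure D1:**
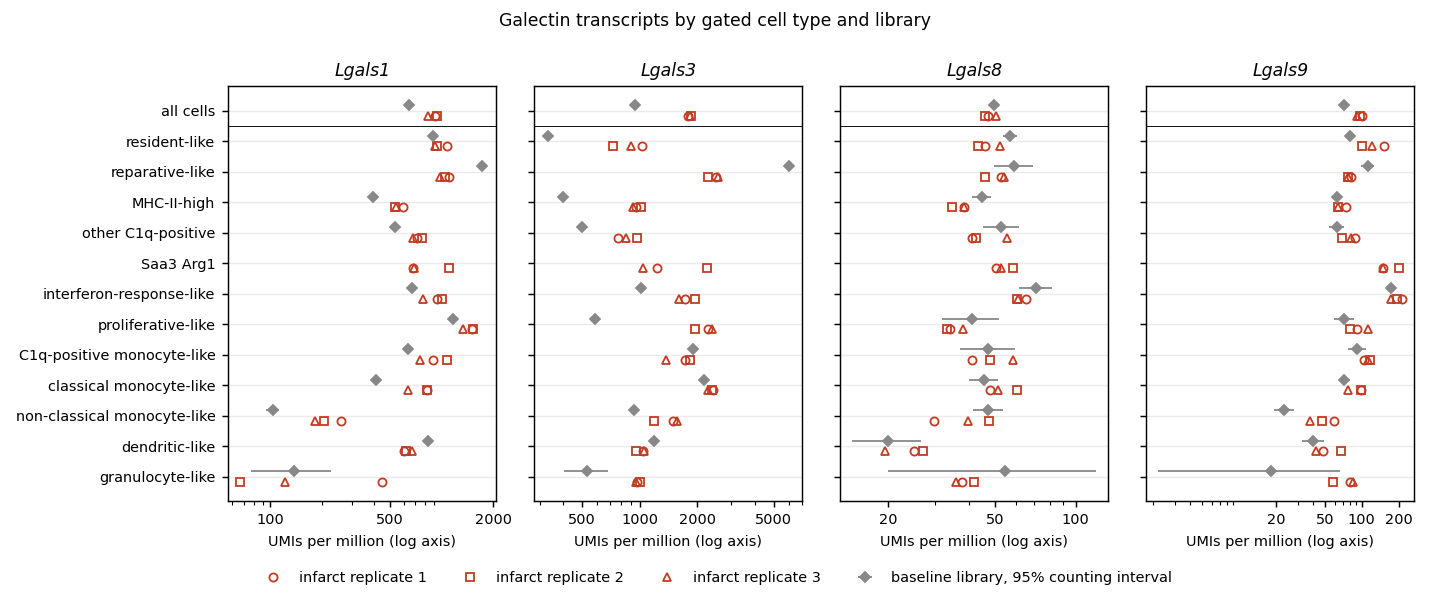
CPM (log axis) of each galectin in all cells and in the 12 gated types, for the baseline library (grey diamonds with the 95% counting interval, drawn where it held at least 20 cells of the type) and infarct replicates 1 to 3 (red symbols). Lgals3 in resident-like cells was at 333 in baseline and at 724 to 1031 in the infarct libraries, and in reparative-like cells at 5989 in baseline and at 2277 to 2555 in the infarct libraries.

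Within the infarct, each type was compared with all other cells of the same hearts by edgeR's quasi-likelihood test on summed counts, with the heart as a block and a threshold of 0.01 on the Benjamini-Hochberg adjusted p over all genes tested. Of the 48 pairs of a galectin and a type, 26 passed, 7 of them higher and 19 lower in the type. Over the 12 comparisons together, 21.5% of all gene tests passed. Lgals3 passed in 8 types, Lgals1 and Lgals9 in 7 each, and Lgals8 in 4. In each of the 26 pairs all 3 hearts lay on the same side.

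In reparative-like cells of the infarct, Lgals3 was at 2495, 2277 and 2555 CPM in the 3 hearts (mean 2442 ± 146), against 1422 ± 97.4 CPM in all other cells. All 3 hearts were higher, by a log2 fold change of 0.86 (SE 0.078, adjusted p = 0.000387). Lgals1 rose with it, from 798 ± 72.6 to 1042 ± 62.0 CPM (log2 fold change 0.47, SE 0.056, adjusted p = 0.00115), and Lgals9 fell from 107 ± 5.15 to 78.4 ± 3.01 CPM (log2 fold change -0.37, SE 0.045, adjusted p = 0.00126). For Lgals9 the other cells include interferon-response-like cells (194 ± 19.8 CPM) and those with Saa3 and Arg1 (166 ± 29.8 CPM). MHC-II-high cells (67.5 ± 5.91 CPM) and the remaining C1q-positive cells (79.6 ± 9.52 CPM) were nearer to the reparative-like level. Lgals8 was at 51.0 ± 4.49 against 45.9 ± 1.87 CPM and did not pass (adjusted p = 0.0301). Hence 3 of 4 galectins passed in a comparison in which 23.6% of genes did. The Lgals1 call was lost without the block (20 of 48 pairs then passed) and without infarct replicate 3 (adjusted p = 0.0160).

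Lgals3 also rose in classical monocyte-like cells, the circulating precursors of inflammatory macrophages, where it was the only galectin of the 4 to pass while 31.5% of genes did. It was at 2416, 2384 and 2273 CPM there, and at 1796 ± 44.8 CPM elsewhere, a log2 fold change of 0.44 (SE 0.062, adjusted p = 0.000168). By mean level the order of the types was reparative-like, classical monocyte-like (2358 ± 75.0 CPM) and proliferative-like (2194 ± 219 CPM), and the ranges of neighbours in this order overlapped. The next type, interferon-response-like at 1748 ± 170 CPM, lay apart from the proliferative-like range. The lowest levels were in the remaining C1q-positive cells at 862 ± 100 CPM and in resident-like cells at 885 ± 154 CPM, whose ranges also overlapped. The highest mean was 2.83 times the lowest, and 9 of 11 neighbouring pairs overlapped.

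Lgals3 fell in 6 types against all other infarct cells. In resident-like macrophages the 3 hearts were at 1031, 724 and 899 CPM against 1834 ± 29.3 CPM, with a log2 fold change of -1.19 (SE 0.103, adjusted p = 5.64e-24), the only galectin call in a comparison in which 12.2% of genes passed, 5.36% higher and 6.81% lower. The remaining C1q-positive cells (log2 fold change -1.23, where 10.1% of genes rose and 13.4% fell), granulocyte-like (-1.18), MHC-II-high (-0.88), dendritic-like (-0.87) and non-classical monocyte-like cells (-0.44) were the others. The non-classical call was lost without the block and without infarct replicate 2 (adjusted p = 0.117). Over the other edgeR and DESeq2 settings the adjusted p of the resident-like call reached 0.00176.

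Gates overlapped, because many infarct cells carried reparative markers beside those of their own type. Of 3085 interferon-response-like infarct cells 1822 also met the reparative gate, and of 766 proliferative-like cells 473 did. Lgals3 was higher in the cells that also met it, in 3 of 3 hearts in each of the 6 types compared. It was at 2070 ± 193 against 1087 ± 152 CPM in interferon-response-like cells, 2768 ± 495 against 954 ± 155 CPM in proliferative-like cells, and 1227 ± 198 against 550 ± 213 CPM in resident-like cells. Lgals1 showed the same order in 3 of 3 hearts in 5 of these types, at 1013 ± 147 against 684 ± 72.8 CPM in interferon-response-like and 1664 ± 129 against 951 ± 122 CPM in proliferative-like cells. The exception was C1q-positive monocyte-like cells, at 903 ± 125 against 904 ± 220 CPM, where 1 of 3 hearts was higher. Lgals9 was not higher in 3 of 3 hearts in any of the 6 types, at 187 ± 16.1 against 206 ± 27.9 CPM in interferon-response-like cells, where 0 of 3 hearts were higher, as in the cells with Saa3 and Arg1, while 2 of 3 were higher in proliferative-like and resident-like cells. Each type was also restricted to its cells of 1 gate, while cells of several gates were counted among the other infarct cells. Lgals3 was then below the other cells in interferon-response-like (log2 fold change -0.81) and proliferative-like cells (-1.14). Among all cells of these types it was not. The cells moved to the other side include those given above with the higher Lgals3. This setting thus cannot show how cells of 1 gate compare with each other.

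Infarct and baseline were then set side by side within 11 types that had at least 20 cells in every library. Of the 44 pairs of a galectin and a type, 27 had all 3 infarct libraries above baseline and 12 had all 3 below, where between 22.5% and 42.2% of genes were above and between 26.9% and 59.2% below, depending on the type. A difference of 2-fold or more with all infarct libraries on the same side was seen in 7 pairs, 4 of them of Lgals3. It was reached by 47% of genes in granulocyte-like cells and by 4.91% to 13.2% in the other types. The 7 pairs include Lgals9 in granulocyte-like cells, which rests on 2 UMIs in baseline. With TMM factors 30 pairs were above, 7 below and 10 past 2-fold.

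Type by type, the counts of galectins stood as follows beside those of all genes with at least 10 CPM. Resident-like cells had 3 galectins above and 1 below baseline in every infarct library, where 22.5% of genes were above, 38.6% below and 8.27% past 2-fold. Reparative-like cells had 0 above and 4 below (30.8%, 55.5% and 6.31% of genes). MHC-II-high cells had 3 above and 1 below (26.3%, 58.3% and 8.93%), as had interferon-response-like cells (27%, 59.2% and 11.3%) and proliferative-like cells (30.4%, 51.7% and 13.2%). In these 3 types the gene below baseline was Lgals8. Among the remaining C1q-positive cells 3 were above and 0 below (30.3%, 53.9% and 11.9%). C1q-positive monocyte-like cells had 2 above and 1 below (24.6%, 49.4% and 9.51%), classical monocyte-like cells 4 above and 0 below (28.2%, 47.5% and 8.13%), and non-classical monocyte-like cells 3 above and 0 below (22.9%, 33% and 4.91%). Dendritic-like cells had 1 above and 2 below (27.7%, 48.6% and 11.3%), and granulocyte-like cells, with few UMIs, 2 above and 1 below (42.2%, 26.9% and 47%).

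In resident-like macrophages Lgals3 was at 333 CPM in baseline (326 to 341) and at 1031, 724 and 899 CPM in the infarct libraries, 2.65 times higher on average. Of these cells, 86 of 2806 in baseline and 36.7% to 42.3% per infarct library also met the reparative gate. In those, Lgals3 was lower in the infarct, at 2685 CPM (2591 to 2781) in baseline and 1227 ± 198 CPM in infarct. With 2 or 3 reparative markers it was at 230 CPM in baseline and 576 ± 195 CPM in infarct. The part of this makeup in the 2.65-fold difference was not tested. In MHC-II-high cells Lgals3 was at 398 CPM (388 to 409) in baseline and at 961, 1018 and 925 CPM in the infarct libraries, 2.43 times higher. In proliferative-like cells it was at 585 CPM (549 to 623) in baseline and at 2263, 1949 and 2371 CPM in the infarct libraries, 3.75 times higher. The infarct and baseline values did not overlap in these types, in which 8.27%, 8.93% and 13.2% of genes reached 2-fold on the same side. For proliferative-like cells the log2 ratio of 1.91 became 0.48 when only cells in 1 gate were counted. The share of resident-like cells with a Lgals3 UMI at 2000 UMIs was 19.9% in baseline (18.4 to 21.5) and 55.9% ± 8.65 in infarct, and the share of MHC-II-high cells was 29.8% (27.9 to 31.7) and 66.5% ± 1.14. The few B-cell-like cells of the infarct libraries held Lgals3 at 1068, 1561 and 2858 CPM, against 371 CPM in baseline. The part of free RNA in these differences within types was not tested.

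Reparative-like cells went the other way. Their 186 baseline cells held Lgals3 at 5989 CPM (5893 to 6085), the highest value of any type and library with at least 20 cells, against 2495, 2277 and 2555 CPM in the infarct libraries, a ratio of 0.408. Lgals1 was at 1711 CPM (1660 to 1763) against 1104, 1041 and 981 CPM, and Lgals9 at 112 CPM (98.8 to 126) against 81.8, 76.8 and 76.5 CPM. Every infarct library was below baseline for all 4 galectins, as for 55.5% of genes in this type. The Lgals3 log2 ratio of -1.29 ranged from -1.43 to -1.11 over the other settings tried. The baseline cells of this type were deeper, with a median of 13090 UMIs against 9309 to 9627, and held 135 MHC class II UMIs per 10000 against 13.7 to 33.3. They also held fewer C1q UMIs, a median of 63.9 per 10000 against 156 to 184. The part of these differences in the galectin values was not tested. The share of reparative-like cells with a Lgals3 UMI at 2000 UMIs was 81.7% in baseline (75.4 to 87.0) and 79.4% ± 0.74 in infarct. The order of these shares turned at other depths, with infarct 4.62 points above baseline at 4000 UMIs.

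In the monocytes the Lgals3 levels were closer. Classical monocyte-like cells held 2174 CPM in baseline (2136 to 2213) and 2416, 2384 and 2273 CPM in the infarct libraries, a log2 ratio of 0.12, and a UMI was present in 95.9% of baseline and 94.2% ± 0.36 of infarct cells at 2000 UMIs. Non-classical monocyte-like cells held 936 CPM (910 to 963) in baseline and 1497, 1186 and 1557 CPM in the infarct libraries, a log2 ratio of 0.59. Interferon-response-like cells (0.79) and the remaining C1q-positive cells (0.79) were also above baseline in 3 of 3 libraries. The latter were shallow in baseline, with a median of 1670 UMIs, and their log2 ratio ranged from 0.58 to 1.98 over the other settings, the highest being the mean of each cell's CPM. Dendritic-like cells had a log2 ratio of -0.22.

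The levels were also read by the number of reparative markers detected, among cells of 8000 to 16000 UMIs to narrow the range of depth. Lgals3 in the infarct was at 951 ± 51.9 CPM in cells with 1 of the 8 markers, 1155 ± 106 with 3, 1887 ± 101 with 5, 2661 ± 74.8 with 6 and 3278 ± 363 with 7 or 8. In baseline it was at 587 CPM (552 to 624) with 1 marker, 1108 (1045 to 1173) with 3, 3428 (3217 to 3649) with 5 and 7171 (6891 to 7459) with 6. The baseline series thus began under the infarct series and ended over it, although its last points rest on 23 and 28 cells, with median depths of 12687 and 13219 UMIs against 9356.5 for those with 1 marker. Lgals1 went from 586 ± 34.6 CPM with 1 marker to 1255 ± 62.7 CPM with 7 or 8 in the infarct, and from 523 to 1811 CPM with 6 markers in baseline. Lgals9 went from 66.6 ± 5.65 to 82.2 ± 10.5 CPM over the same range in the infarct, and from 64.9 to 145 CPM with 6 markers in baseline. In resident-like cells of the baseline library, taken at all depths, Lgals3 was at 148 CPM (140 to 157) in the 1355 cells with 0 or 1 reparative marker, 230 CPM (221 to 239) in those with 2 or 3, and 2685 CPM (2591 to 2781) in the 86 cells with 4 or more, whose median depths were 6317, 8519 and 13135.5 UMIs. These counts of markers come from the same cells and libraries as the galectin levels and are given as a description.

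**Figure D2:**
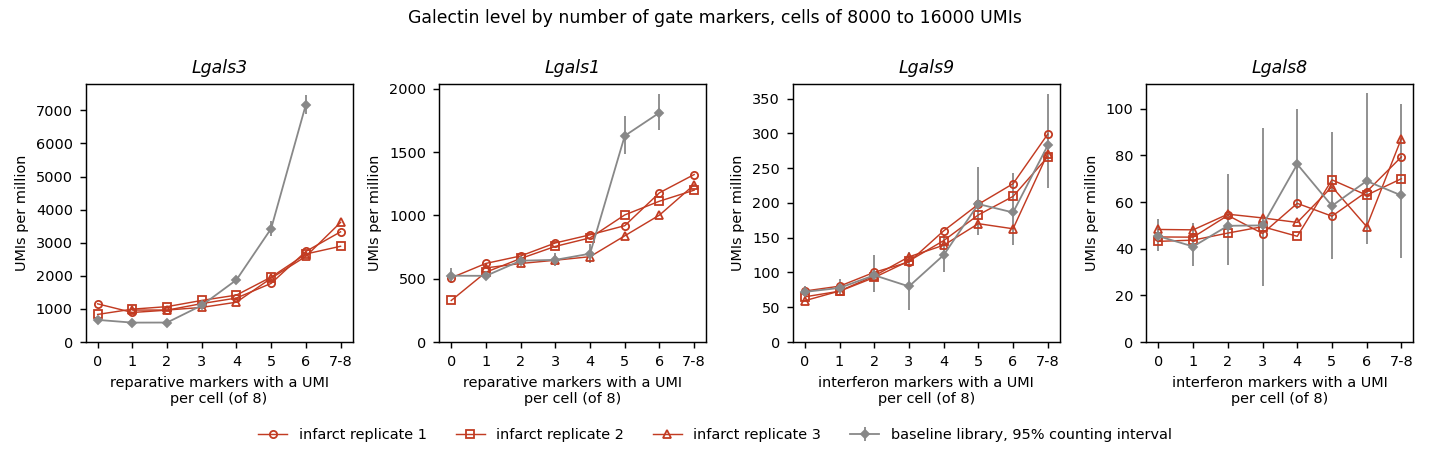
CPM of Lgals3 and Lgals1 by the number of reparative markers, and of Lgals9 and Lgals8 by the number of interferon-response markers, with a UMI in a cell, in cells of 8000 to 16000 UMIs. Grey points are the baseline library with 95% counting intervals and red symbols infarct replicates 1 to 3. Lgals3 in baseline cells with 6 reparative markers was at 7171 against 2661 ± 74.8 in the infarct, while Lgals9 in cells with 7 or 8 interferon markers was at 283 in baseline and 279 ± 17.6 in the infarct. These baseline points rest on 28 and 24 cells.

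Lgals1 had another order of types. It was highest in proliferative-like cells, at 1497, 1510 and 1320 CPM (mean 1442 ± 106) against 867 ± 57.7 CPM in all other infarct cells, with a log2 fold change of 0.69 (SE 0.063, adjusted p = 9.11e-06). This range lay apart from that of reparative-like cells, the next in order. In these cells 2 of 4 galectins passed, among 26.5% of genes. With the proliferative-like cells that also met another gate counted among the other cells, the log2 fold change was 0.07 (adjusted p = 0.684). Resident-like macrophages came next at 973 ± 82.7 CPM, and no difference from the other cells passed the threshold (log2 fold change -0.00, adjusted p = 0.991). In CPM they were higher in 3 of 3 hearts, the scaling shift between CPM and the fitted values being 0.13 in this type.

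Lgals1 fell in MHC-II-high cells (557 ± 32.0 against 938 ± 64.6 CPM, log2 fold change -0.62, adjusted p = 2.94e-07) and in the remaining C1q-positive cells (log2 fold change -0.41, adjusted p = 3.01e-06, and 0.0273 without the block). It fell further in non-classical monocyte-like cells, the patrolling monocytes, to 258, 206 and 183 CPM from 896 ± 56.9 CPM, a log2 fold change of -2.13 (SE 0.11, adjusted p = 1.05e-76), and in granulocyte-like cells (log2 fold change -2.46, adjusted p = 1.59e-36), where the hearts were uneven at 447, 66.7 and 121 CPM. Over the other edgeR and DESeq2 settings the adjusted p reached 8.93e-07 in non-classical monocyte-like and 0.00299 in granulocyte-like cells. The highest type mean was 6.82 times the lowest.

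Against baseline, the ratio of Lgals1 was 2.09 in non-classical monocyte-like cells, from 103 CPM (94.5 to 112), where 4.91% of genes reached 2-fold on the same side. In classical monocyte-like cells Lgals1 was at 412 CPM (395 to 429) in baseline and at 821, 819 and 632 CPM in the infarct libraries, a log2 ratio of 0.88. Resident-like macrophages differed little, at 890 CPM (877 to 903) against 1067, 942 and 910 CPM (log2 ratio 0.13). Dendritic-like cells were lower in every infarct library, at 605, 621 and 672 CPM against 826 CPM (790 to 864).

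Lgals9 followed the interferon-response gate. In interferon-response-like infarct cells it was at 213, 194 and 174 CPM (mean 194 ± 19.8), against 82.5 ± 5.70 CPM in all other cells, with a log2 fold change of 1.36 (SE 0.044, adjusted p = 5.34e-10), the highest of the 48 pairs. All 3 hearts were higher and the ranges did not overlap. Lgals9 and Lgals8 passed in this type, 2 of 4 galectins, among 12.7% of genes. By the number of interferon markers, in cells of 8000 to 16000 UMIs, Lgals9 in the infarct was at 66.0 ± 6.99 CPM with 0 of 8 markers, 118 ± 3.97 with 3, 184 ± 14.0 with 5 and 279 ± 17.6 with 7 or 8. The baseline values were 72.1 CPM (63.8 to 81.1) with 0 markers and 283 CPM (221 to 356) with 7 or 8, close to those of the infarct at both ends of the range. The value with 7 or 8 markers rests on 24 cells in baseline and 598 in the infarct.

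Interferon-induced genes often carry an interferon-stimulated response element (ISRE) near the start of transcription. The Lgals9 sequence around the start is therefore shown, on the minus strand of GRCm38.p6 (RefSeq promoter table), 5′ to 3′, with capitals for each match to the ISRE core (GAAA, any 2 bases, GAAA), here read on the opposite strand. The first window, chr11:78984947-78985066, ends at the outer edge of the first GENCODE exon (78984946) and holds a match from 33 to 24 bases before that edge. The RefSeq start lies at 78984924, 22 bases inside the exon, and counted from it this match runs from 55 to 46 bases before the start. The second window, chr11:78984890-78984919, lies inside the exon and holds a match from base 16 to base 25, counted from the RefSeq start as base 1.
Lgals9 upstream: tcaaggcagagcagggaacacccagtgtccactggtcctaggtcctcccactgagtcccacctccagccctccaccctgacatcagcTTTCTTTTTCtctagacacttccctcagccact
Lgals9 first exon: atagctgtggTTTCTGTTTCctagctcagc
Among 32851 promoters of 250 bases before to 50 bases after a start, 3.44% held at least 1 such match on either strand and 0.225% held 2 or more. The promoters of Lgals3 and Lgals8 held none, and Lgals1 was not searched because the table used has no entry for it. Of the other motifs searched on both strands, the PU.1 core (GAGGAA) had 2 matches in the Lgals9 window, beside 4.82% of promoters with 2 or more, and the GC box (GGGCGG) had 2 in the Lgals3 window, beside 19.5%. The AP-1 (TGANTCA) and E-box (CACGTG) letters were in none of the 3 windows. A match describes the letters of this window and is not a site of binding.

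Lgals9 was also higher in the cells with Saa3 and Arg1, a group of infarct macrophages with acute-phase and arginine-metabolism transcripts. There it was at 149, 200 and 148 CPM, with 93.3 ± 4.88 CPM elsewhere and a log2 fold change of 0.73 (SE 0.104, adjusted p = 8.05e-06), the only galectin call in a comparison in which 25% of genes passed. This type had 754, 81 and 519 cells in the 3 hearts, and the heart with 81 cells had the highest Lgals9 and also the highest Lgals3, at 2232 CPM against 1228 and 1036. Lgals9 fell in non-classical monocyte-like (log2 fold change -1.08), dendritic-like (-0.92), MHC-II-high (-0.43), reparative-like (-0.37) and the remaining C1q-positive cells (-0.36). Without the block the calls in MHC-II-high cells (adjusted p = 0.0109) and in the remaining C1q-positive cells (0.0297) were lost, the latter also with a stricter gate (0.0358). All 11 neighbouring pairs of types overlapped in range, from interferon-response-like at 194 to non-classical monocyte-like cells at 48.4 ± 10.7 CPM.

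Within types, Lgals9 was above baseline in 3 of 3 infarct libraries in 10 of 11 types. In interferon-response-like cells the levels were 173 CPM (157 to 189) in baseline and 213, 194 and 174 CPM in the infarct libraries, a log2 ratio of 0.17. In resident-like macrophages they were 80.4 CPM (76.6 to 84.3) in baseline and 152, 101 and 121 CPM in the infarct libraries (0.63), and in non-classical monocyte-like cells 23.4 CPM (19.5 to 27.9) in baseline and 59.5, 47.5 and 38.2 CPM in the infarct libraries (1.05). Granulocyte-like cells had 2 Lgals9 UMIs in baseline, which is too few for a fold change.

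Lgals8 varied least among the types in the ratio of the highest to the lowest mean, 2.62. The part of free RNA in its levels was not tested. In interferon-response-like cells it was at 65.5, 60.6 and 61.2 CPM (mean 62.4 ± 2.68) against 45.8 ± 3.18 CPM in the other infarct cells, with a log2 fold change of 0.57 (SE 0.053, adjusted p = 9.47e-06). The range lay above that of every other type. The call was lost when interferon-response-like cells of several gates were counted among the other cells (log2 fold change 0.33, adjusted p = 0.0119). Lgals8 fell in dendritic-like cells, to 23.8 ± 3.82 from 48.4 ± 2.56 CPM, a log2 fold change of -1.04 (SE 0.13, adjusted p = 1.69e-06), a type in which all 4 galectins fell while 35.7% of genes passed. It also fell in proliferative-like cells (log2 fold change -0.51, adjusted p = 0.000848, and 0.0837 in thinned cells) and MHC-II-high cells (-0.28, adjusted p = 0.000744). In MHC-II-high cells all 4 galectins fell, among 22.4% of genes (10.1% higher and 12.3% lower), although the Lgals9 call was lost without the block (adjusted p = 0.0109) and the Lgals8 call without the block (adjusted p = 0.0392), without infarct replicate 3 (0.0118) and with a stricter gate (0.0248). C1q-positive monocyte-like cells had no galectin past the threshold, at 9.99% of genes. Against baseline, Lgals8 was below in all infarct libraries in 6 types, where 26.9% to 59.2% of genes were, depending on the type. In reparative-like, interferon-response-like, proliferative-like and granulocyte-like cells of these 6, the infarct mean lay inside the counting interval of the baseline. Lgals8 was above in all infarct libraries in 1 type, the classical monocyte-like cells (45.5 CPM against 47.8, 60.4 and 51.3 CPM).

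**Figure D3:**
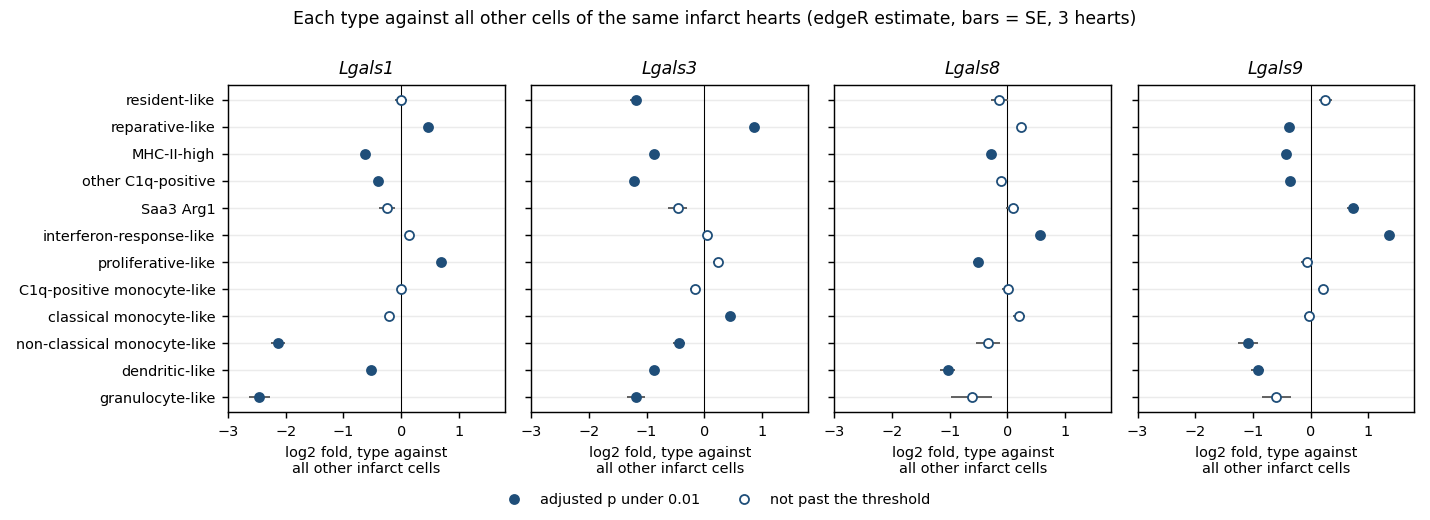
Log2 fold change of each galectin in a gated type against all other infarct cells, with its standard error (edgeR quasi-likelihood test, 3 hearts). Filled points passed an adjusted p of 0.01, which 26 of the 48 did, from -2.46 for Lgals1 in granulocyte-like cells to 1.36 for Lgals9 in interferon-response-like cells.

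The genes that work with galectins were read from 4 lists. Of 7 other galectins and galectin-like genes, 6 were among the genes listed. None of those with a level reached 10 CPM in either group, the highest being at 2.20 CPM. Of 16 surface and secreted glycoproteins known to bind galectins, 15 reached 10 CPM. Of these, 3 were above and 6 below baseline in 3 of 3 infarct libraries, with a median log2 ratio of -0.02 beside -0.21 for all genes. Over all genes at this level, 29.1% were above, 58.1% below and 9.56% past 2-fold on the same side. The 3 that were higher were also past 2-fold. Pdpn, which encodes podoplanin, was at 1.91 CPM in baseline and 11.2 ± 3.16 in infarct (log2 ratio 2.55). Trem2, a lipid-sensing receptor that is also a marker of the reparative gate, was at 202 and 864 ± 109 CPM (2.10). Lgals3bp, which encodes a secreted glycoprotein that binds galectins, was at 92.5 and 192 ± 24.4 CPM (1.06). The lowest ratios were those of Spn, which encodes the sialoglycoprotein CD43 and is a marker of the non-classical gate (-0.99), Ptprc, which encodes CD45 (-0.77), and the integrin subunit gene Itgb1 (-0.49).

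Of 12 genes for lysosomal glycoproteins and adaptors of damaged membranes, 9 reached 10 CPM. Of these, 3 were above and 5 below baseline, with a median log2 ratio of -0.16, where 29.1% of all genes were above and 58.1% below. The highest were the autophagy receptor gene Sqstm1 (0.31), Lamp1, which encodes a major glycoprotein of the lysosomal membrane (0.25), and Map1lc3b (0.17). The lowest were Calcoco1 (-0.46), Pdcd6ip (-0.34) and Tfeb, which encodes a transcription factor for lysosomal genes (-0.30). Of 18 enzymes that build or cap galectin ligands, 16 reached 10 CPM, with 5 above and 8 below and a median of -0.19. The counts of both lists lie near the shares over all genes. Past 2-fold on the same side were 9.56% of all genes. Mgat5, which encodes the enzyme that adds a branch to N-glycans, had the highest ratio (0.44), followed by Mgat4b (0.32) and Gcnt1 (0.24). Both genes past 2-fold were lower, the sialyltransferase gene St3gal6, at 131 CPM in baseline and 25.4 ± 4.93 in infarct (-2.37), and C1galt1, which starts the core of many O-glycans (-1.10), followed by St3gal1 (-0.79).

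**Figure D4:**
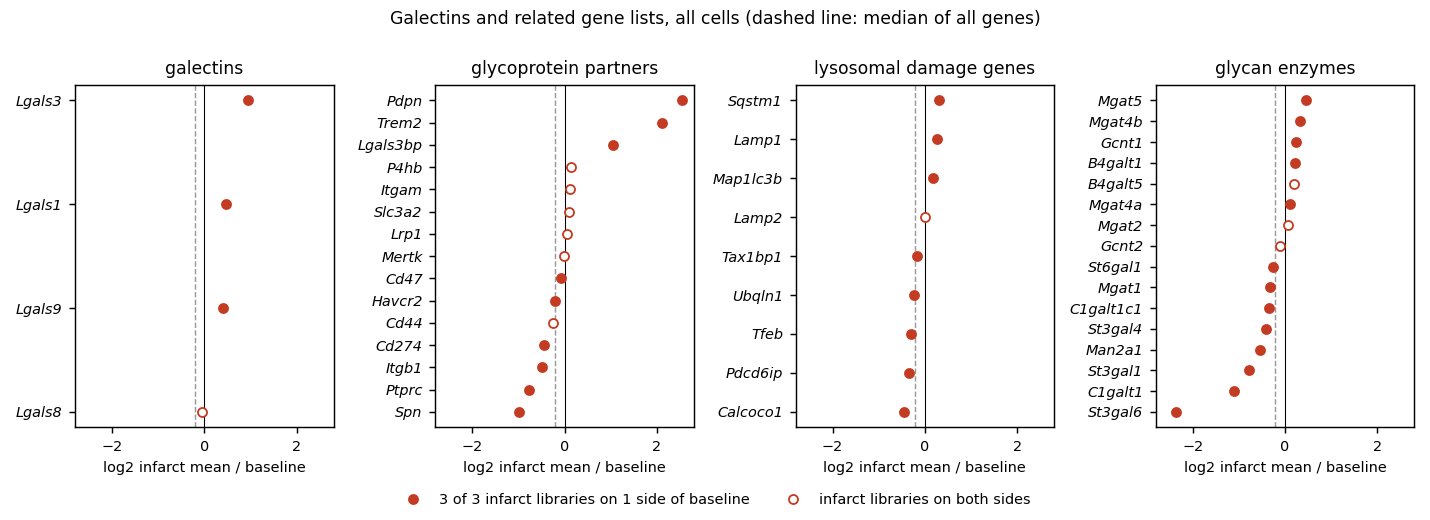
Log2 ratio of the infarct mean to the baseline library over all cells for the 4 galectins and for the members of 3 lists of related genes with at least 10 CPM. Filled points have 3 of 3 infarct libraries on 1 side of baseline and the dashed line is the median of all genes, -0.21. Pdpn (2.55), Trem2 (2.10) and Lgals3bp (1.06) are the highest and St3gal6 (-2.37) the lowest.

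In reparative-like infarct cells, 5 of 16 glycoproteins rose and 5 fell, 4 of 11 lysosomal genes rose and 0 fell, and 2 of 17 glycan enzymes rose and 4 fell, in a comparison in which 9.86% of genes rose and 13.7% fell. Beside the gate marker Trem2 (log2 fold change 1.16, adjusted p = 0.000338), the leading members were Pdpn (1.04, adjusted p = 0.00795) and Cd274, which encodes PD-L1 (-0.88, adjusted p = 0.00018). Among lysosomal genes they were Sqstm1 (198 ± 14.3 against 138 ± 12.6 CPM, log2 fold change 0.61), Lamp1 (0.48) and Calcoco1 (0.36), and among enzymes St3gal4 (-0.64), Mgat5 (0.60) and C1galt1 (-0.46). The median log2 fold change was 0.18 for the lysosomal genes tested, 0.03 for the glycoproteins and -0.10 for the enzymes, beside -0.00 for all genes.

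In interferon-response-like cells, 7 of 16 glycoproteins rose and 2 fell, where 7.82% of genes rose and 4.9% fell. They were led by Lgals3bp, with 360 CPM in these cells and 170 ± 19.6 elsewhere (log2 fold change 1.21, adjusted p = 1.65e-09), Cd274 (1.17) and Cd47, which encodes an inhibitory signal to phagocytes (0.49). Their median of 0.02 was close to that of all genes, -0.01. Of the lysosomal genes 2 of 11 rose, Lamp2 (0.24) and Lamp1 (0.19), and of the enzymes 3 of 17 rose and 2 fell, led by St3gal6 (0.47), B4galt5 (0.39) and St6gal1 (-0.30). In dendritic-like cells, 4 of 16 glycoproteins rose and 11 fell, with Mertk (-5.41), Trem2 (-5.16) and Pdpn (-4.20) the lowest. Of the lysosomal genes 5 of 11 fell, led by Lamp1 (-2.10), and 2 of 17 enzymes rose and 8 fell, where 16.6% of genes rose and 19.1% fell. The dendritic-like gate took only cells under 10 C1q UMIs per 10000, while most other infarct cells were C1q-positive macrophages. Low levels of macrophage genes such as Mertk and the gate marker Trem2 are thus partly set by the gates. In the cells with Saa3 and Arg1, 8 glycoproteins rose, with the integrin subunit gene Itgam at 1212 ± 193 against 240 ± 46.8 CPM (2.27), and 6 fell, with the inhibitory receptor genes Lag3 (-1.83) and Havcr2 (-1.63) the lowest. Of their enzymes 9 of 17 rose, Man2a1 (1.39) and St6gal1 (1.17) among them, and 4 fell, with St3gal6 (-2.21) the lowest, where 13.2% of genes rose and 11.7% fell.

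The genes whose levels followed each galectin most closely were ranked by Pearson's correlation of log2(CPM + 1) over 47 sums of a library and a type, 36 of them from the infarct, among the 3025 genes averaging 50 CPM or more. These points share libraries and cells, and the values are descriptive. For Lgals1 they were Tubb2a (r = 0.89), Sdc4 (0.86), Slc25a4 (0.86), Vps29 (0.86) and Emp1 (0.85), of which 2 were also among the top 50 by rank correlation. For Lgals3 they were Cyba, which encodes a subunit of the phagocyte oxidase (0.76), Ube2l3 (0.76), the reparative gate marker Fabp5 (0.75), Esd (0.75) and Soat1, which encodes a cholesterol-esterifying enzyme (0.74). For Lgals8 they were Lamp2 (0.79), the phagosomal metal transporter gene Slc11a1 (0.78), the interferon-inducible Ifi204 (0.77), Mpp1 (0.76) and Fcgr3 (0.76). For Lgals9 they were Anxa3 (0.82), Cndp2 (0.80), the reparative gate marker Spp1 (0.80), Bsg (0.78) and the cathepsin gene Ctsl (0.78). Between the galectins, r was highest for Lgals1 with Lgals9 (0.60) and for Lgals8 with Lgals9 (0.49), 0.37 for Lgals1 with Lgals3, and 0.11 to 0.34 for the other pairs.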

How the data were processed

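The authors deposited UMI counts for each cell, not normalised, obtained by Cell Ranger (3.0.1 per the labels, 3.1.0 per the file headers) and the mm10 reference. Following the study's filter, cells needed 500 to 40000 UMIs and more than 200 genes, and genes needed 3 cells. Cells were gated by at least 4 detected markers of a list. Lineage gates came first, and cells that met them beside C1q transcripts were set aside. Where several myeloid gates were met, the order was proliferative, interferon-response, classical monocyte, Saa3 and Arg1, resident, reparative. C1q-positive meant at least 10 C1q UMIs per 10000 and MHC-II-high at least 200 class II UMIs per 10000. The members and lists were chosen with earlier results of these data known, and the gate thresholds after marker distributions had been seen. Named genes from a list are its 3 highest and 3 lowest by log2 ratio, or its 3 largest changes past the threshold in a type, and likeness names the 5 genes of highest correlation.

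Counts were summed per library and type. Types with at least 20 cells in each infarct library were tested by edgeR 4.0.16 (R 4.3.3; TMM, filterByExpr, quasi-likelihood test, library as a block, Benjamini-Hochberg adjustment across every gene in the fit). The pairing is by heart, since each heart gave a sum of the type and a sum of its other cells. Cells were not treated as replicates. Infarct and baseline were compared as CPM without a test. Exact intervals (95%, scipy 1.17.1) cover counting error only. Summed depth per library was 70982109 UMIs in baseline and 88048742 to 97301304 in infarct. Doublets were left in, because Scrublet (scanpy 1.11.5) called 0 to 2 cells per library automatically. Removing the 8.10% to 8.63% of highest score was an alternative, as were DESeq2 1.42.0, other scalings and gates, thinned cells and left-out libraries. The restriction to cells in 1 gate was chosen after seeing the data. In its tests between types, cells of several gates were counted among the other cells. The fits were tested on simulated data. Promoter windows are from RefSeq. Lgals6 was not analysed here, and Lgals12 and Calcoco2 have no ratio of infarct to baseline.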

Additional observations from a re-analysis of the deposited data

Results flagged for a closer look

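The difference between infarct and baseline pointed in opposite directions in different cell types, with all 3 infarct libraries on 1 side of the baseline value in each type named. The difference between types was not tested, because the baseline is 1 library. For Lgals1, 8 types were above baseline (C1q-positive monocyte-like cells turned to -0.0227 with doublets removed), while reparative-like cells (log2 ratio -0.716) and dendritic-like cells (-0.385) were below. For Lgals3, 8 types were above, while reparative-like cells (-1.29), C1q-positive monocyte-like cells (-0.206) and dendritic-like cells (-0.219) were below, the C1q-positive monocyte-like value turning to 0.00668 with TMM factors and 0.16 with a stricter gate. For Lgals9, 10 types were above and reparative-like cells (-0.509) below, of the 10 the interferon-response-like cells turning to -0.00377 with a stricter gate and dendritic-like cells to -0.20 in thinned cells. For Lgals8, 6 types were below and classical monocyte-like cells (0.224) above, and 3 of the 6 (interferon-response-like, proliferative-like and granulocyte-like) turned above baseline under at least 1 other setting. In these 3 and in reparative-like cells the infarct mean of Lgals8 lay inside the counting interval of the baseline.

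A Lgals1 signal was also found in cells outside the myeloid types. Fibroblast-like cells of the infarct libraries (32, 5 and 5 cells) held 3379, 4826 and 2257 CPM, a mean of 3487 CPM, against 557 CPM from 16 UMIs in the 5 fibroblast-like cells of the baseline library. Endothelial-like cells of the infarct libraries (5, 5 and 3 cells) held a mean of 1252 CPM, against 41.0 CPM (20.5 to 73.3) in 81 endothelial-like cells of the baseline library. B-cell-like cells of the infarct libraries (18, 8 and 26 cells) held Lgals1 at 534, 984 and 596 CPM, against 64.3 CPM (37.5 to 103) in 69 baseline cells, and Lgals3 at a mean of 1829 CPM, against 371 CPM. All 3 non-myeloid types were thus above baseline for Lgals1 in 3 of 3 infarct libraries, and the part of free RNA in these values was not tested.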

How the results depend on the processing

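The count of 26 galectin and type pairs was 25 to 30 with each library left out, and 26 with DESeq2 size factors, with the DESeq2 Wald test, with doublets removed and without cells over 10% mitochondrial UMIs. It was 28 without a filter on low counts and with a stricter gate, 29 in thinned cells, 32 with cells in 1 gate only and 20 without the replicate block. With other macrophages and monocytes as the comparator, 20 pairs passed over 10 types. Of 616 repeats of single tests, 577 kept direction and side of the threshold, 14 lost and 22 gained a call, and 3 reversed, all with cells in 1 gate only: Lgals1 (-0.38) and Lgals3 (-0.81) in interferon-response-like and Lgals3 (-1.14) in proliferative-like cells. Without the replicate block, list calls over all types were 70 in place of 122 for glycoproteins, 22 in place of 36 for lysosomal genes and 54 in place of 86 for enzymes.

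Over whole libraries, log2 ratios of Lgals1, Lgals3, Lgals8 and Lgals9 were 0.76, 1.24, 0.23 and 0.70 with TMM factors. As the mean of each cell's CPM, Lgals1, Lgals3 and Lgals9 were 0.68, 1.28 and 0.54, and in thinned cells 0.59, 1.17 and 0.50. Lgals3 was 0.93 with doublets removed and 0.92 without cells over 10% mitochondrial UMIs. With each infarct library left out, the ratios were 0.44 to 0.53, 0.95 to 0.97, -0.10 to -0.03 and 0.38 to 0.45 for the 4 genes, and pairs past 2-fold were 5 to 7. With TMM factors 7 pairs in place of 12 were below baseline and 10 in place of 7 past 2-fold.

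Within types, 388 of 483 values stayed within 1 SD, 84 moved further and 11 reversed. With TMM factors Lgals8 in interferon-response-like (0.11) and Lgals3 in C1q-positive monocyte-like cells (0.00668) reversed. With a stricter gate Lgals9 in interferon-response-like (-0.00377) and Lgals3 in C1q-positive monocyte-like cells (0.16) did. With doublets removed Lgals1 in C1q-positive monocyte-like (-0.0227) and Lgals8 in granulocyte-like cells (0.32) did. In thinned cells Lgals8 in proliferative-like (0.95) and Lgals9 in dendritic-like cells (-0.20) did. With cells in 1 gate only Lgals8 in proliferative-like (0.13) and granulocyte-like cells (0.10) did, and as the mean of each cell's CPM Lgals8 in proliferative-like cells (0.0227) did. Thinned baseline granulocyte-like cells held no Lgals8 UMI and gave no value. The share of reparative-like cells with Lgals3, 2.33 points below baseline at 2000 UMIs, was 4.62 points above it at 4000 UMIs and 5.81 unthinned, and that of all cells with Lgals8 was 5.12 points above baseline unthinned. By rank correlation 2 of the 5 genes most like Lgals1 were among the top 50. The cause was not tested. The depth limits Lgals8 and Lgals9 most, since few UMIs of them are found per cell.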
